A study of Rattus norvegicus with 9 samples.

Results

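The comparison of high-dose leech extract with the LPS-induced model covers 6 of the 9 RNA-seq libraries of a study of HBZY-1, a rat mesangial cell line derived from the kidney glomerulus. Its members were taken from the group labels: 3 libraries labelled LPS-induced and 3 labelled as given a water extract, at high dose, of lyophilized powder made from the blood-feeding leech Poecilobdella manillensis. The other 3 libraries, labelled control, were left out of every test except 1 alternative fit. The labels give all 6 libraries the same cell line and name no genotype, dose or exposure time. They do not say whether the cells given the extract also received LPS, so a difference described here is one between the groups as labelled. The replicates are called biological, with no statement that they were grown apart. The p-values therefore set the difference between groups only against the spread between these libraries. A difference in culture or handling between the groups cannot be told apart from a difference in treatment.

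Mesangial cells hold the capillary loops of the kidney's filter together: they contract, make the matrix between the loops and release inflammatory mediators when stimulated. LPS, lipopolysaccharide from the outer membrane of Gram-negative bacteria, is sensed by the receptor TLR4, which acts through NF-kB and related factors to switch on genes for cytokines, chemokines and adhesion molecules. Blood-feeding leeches make proteins that block clotting and several of the host's proteases. The title of the series names the TXNIP/NLRP3 pathway. TXNIP binds thioredoxin and is known to engage NLRP3, a sensor that assembles the inflammasome, which activates caspase-1 and so the maturation of interleukin-1 beta and interleukin-18.

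The deposited tables identify genes and transcripts by Ensembl rat identifiers alone. The reference table of rat genes used here held no Ensembl identifiers, so the 30560 gene identifiers could not be matched to it. No identifier was therefore given a name, the genes of the TXNIP/NLRP3 pathway were not analysed here, and the labelled cell type was not checked against its marker genes. The groups of genes below are defined by abundance, direction and size of the difference, and by their transcripts. At most 2 identifiers are printed in each direction.

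Abundance was given as TPM, which is normalised for transcript length and is a relative unit whose values add up to 1000000 in each library. Read depth is not kept in TPM and is unknown, so precision rests on the spread between libraries, and no counting interval is given. The number of genes above 0 TPM ranged from 15479 to 15704 per library, and the number at 1 TPM or more from 11954 to 12038. Over the 6 libraries, 12429 genes were listed at 0 throughout, 6027 were above 0 with a mean under 1 TPM, and the 12104 genes whose mean reached 1 TPM were tested. The 6 libraries separated by group on the first principal component, which held 59.1% of the variance: the LPS libraries lay at -25.4, -31.8 and -25.8 and the extract libraries at 29.1, 25.6 and 28.3. LPS library 2 lay farther out than the other two of its group. Across genes, libraries of the same group correlated at 0.981 to 0.988 (Pearson's r of log2 values) and libraries of different groups at 0.952 to 0.961. The median coefficient of variation between libraries of a group was 5.78% in LPS and 4.65% in extract cells.

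Most tested genes differed between the groups, and nearly all of them by a small amount. Of the 12104 genes, 4084 were higher in extract cells (33.7%) and 2935 were lower (24.2%), which makes 58% called in either direction (limma, adjusted p below 0.05). In bulk RNA, fewer cells of a kind and less RNA per cell cannot be told apart. Differences were taken as log2(TPM + 1), extract minus LPS, a scale on which 1 is a 2-fold difference and the change of low genes is understated. The 5th percentile of the difference was -0.68 and the 95th was 0.81, against a median standard error of 0.063. Among called genes, 74.2% differed by less than 1.5-fold and 92.1% by less than 2-fold. The values of the 3 extract libraries did not overlap those of the 3 LPS libraries in 7919 genes (65.4%). This separation held for 4058 of the genes called higher and 2903 of those called lower, while 958 separated genes were not called and 58 called genes overlapped.

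The balance between higher and lower calls depended on how the libraries were scaled. Higher genes made up 58.2% of the calls with TPM as deposited. After rescaling by the median of ratios they made up 51.0%, with 3603 genes higher and 3464 lower, and with quantile normalization 50.9%, with 3592 and 3466. The median difference over all tested genes was 0.04 as deposited and -0.004 after rescaling.

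Large differences were fewer, and among the largest there were more falls than rises. At least 2-fold differences were called for 306 genes that were higher (2.53% of those tested) and 247 that were lower (2.04%). At 4-fold or more, 19 genes were higher and 38 were lower. The excess of higher genes at 2-fold was lost after median-of-ratios rescaling, with 255 higher and 265 lower, and with quantile normalization, with 260 and 265. It also depended on the pseudocount: without rescaling, 0.1 gave 436 higher and 313 lower, and 5 gave 137 and 134. The excess of lower genes at 4-fold was found under both rescalings, with 17 higher and 37 lower in each. It was also found with a pseudocount of 0.1 (41 and 69) and of 5 (10 and 16), which moved the counts themselves by more than 1.5 times. No test of the difference between these counts was made. Of the 306 higher genes, 230 had a TPM in every extract library at least 2 times that in every LPS library, and of the 247 lower genes, 184 showed the reverse. Overlapping values were found for 2 of the 306 and 3 of the 247.

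The plot of differences against abundance shows the crowd of small differences around 0 and, past 4-fold, more called genes that fell than rose.

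**Figure D1:**
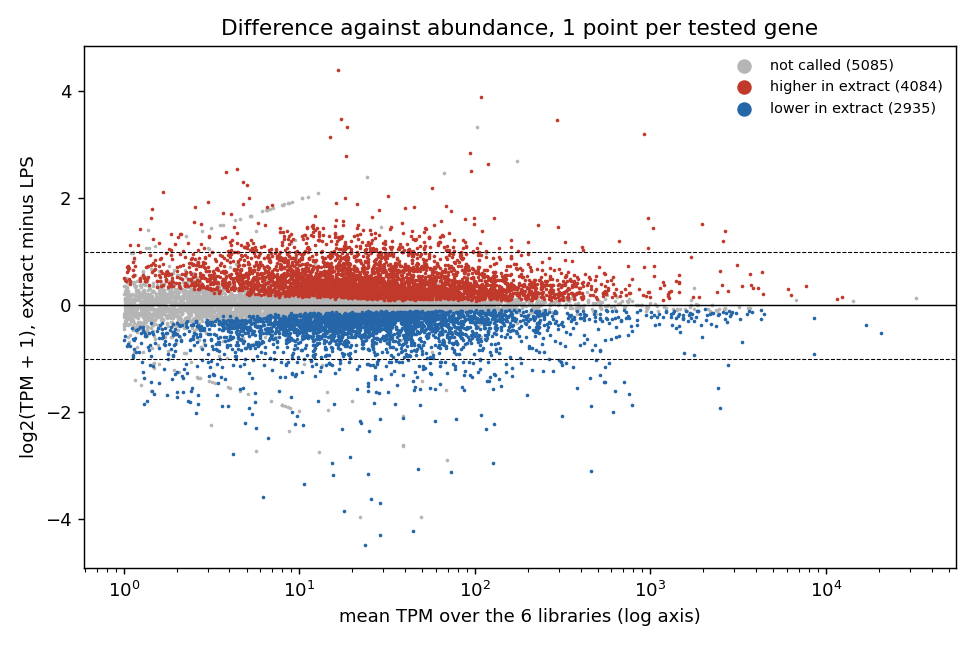
Difference between extract and LPS cells for 12104 genes (vertical axis, log2(TPM + 1), extract minus LPS) against mean TPM over the 6 libraries (horizontal axis, log scale). Red points are the 4084 genes called higher, blue points the 2935 called lower and grey points those not called, and dashed lines mark a 2-fold difference. At 4-fold or more, 38 called genes lie in the lower part and 19 in the upper part.

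In LPS cells the genes that fell by at least 2-fold had a higher median than those that rose, and in extract cells a lower one. Choosing both sets by this same difference favours that order, so the levels are a description only. The median of the 247 falling genes went from 37.5 TPM in the LPS group to 10.9 TPM in the extract group. That of the 306 rising genes went from 10.8 TPM to 26.3 TPM, while over all tested genes the LPS median was 19.0 TPM and the extract median 19.8 TPM. With median-of-ratios rescaling, which calls slightly different sets, the medians were 37.0 and 11.8 TPM for falling and 9.70 and 25.5 TPM for rising genes. They depended on the pseudocount, which sets how many low genes pass 2-fold. With 0.1 they were 19.7 and 6.37 TPM for falling and 6.83 and 18.3 TPM for rising genes, so the higher levels of the sets lay close together, and with 5 they were 87.7 and 31.9 TPM and 20.1 and 62.0 TPM. At the higher of their levels, 66 of the 247 falling genes (26.7%) had at least 100 TPM in LPS cells, and 45 of the 306 rising genes (14.7%) had at least 100 TPM in extract cells. At the lower of their levels, 35 of the falling genes were under 1 TPM in extract cells and 23 of the rising genes were under 1 TPM in LPS cells. Together the falling genes took 3.74%, 4.15% and 4.04% of all TPM in the LPS libraries and 1.48%, 1.44% and 1.35% in the extract libraries. For the rising genes the shares were 1.28%, 1.16% and 1.22% in LPS and 3.25%, 3.22% and 3.26% in extract libraries. These sums describe genes chosen by this same difference and are given without a test.

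ENSRNOG00000057443 showed the largest fall of any gene that met the naming rule (called, no overlap between groups, at least 5 TPM in the higher group). Its TPM was 46.1, 40.2 and 51.7 in the LPS libraries and 1.25, 0.97 and 1.09 in the extract libraries. Every LPS library was far above every extract library, with means of 46.0 ± 5.7 TPM and 1.10 ± 0.14 TPM (SD, n = 3). The difference was -4.48 ± 0.099 on the log2 scale (SE, limma adjusted p = 2.88e-07). In the 3 control libraries, which took no part in the test, it was listed at 0.11, 0.02 and 0.37 TPM. Both of its expressed transcripts were lower, by -3.60 ± 0.093 (limma adjusted p = 7.44e-06) and -4.24 ± 0.15 (limma adjusted p = 1.72e-05). The one that led in LPS cells, with a mean share of 59.6% of the gene's TPM, held 45.0% in extract cells, where both were under 1 TPM.

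ENSRNOG00000002792 had the next largest fall under the same rule. The LPS libraries stood at 73.4, 96.0 and 87.2 TPM and the extract libraries at 3.71, 3.45 and 3.69 TPM. All 3 extract values lay close together and below every LPS value, with an LPS mean of 85.5 ± 11.4 TPM and an extract mean of 3.62 ± 0.14 TPM (SD, n = 3). The log2 difference was -4.22 ± 0.093 (SE, limma adjusted p = 2.88e-07), and all of its TPM came from 1 transcript. Control libraries held 2.51, 3.35 and 2.83 TPM.

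Among the genes that rose, ENSRNOG00000002331 had the smallest p of all 12104 and the second largest difference under the naming rule. Its level was 13.2, 13.2 and 12.1 TPM in the LPS libraries and 201.5, 201.1 and 207.3 TPM in the extract libraries. The control libraries held 15.6, 14.8 and 14.8 TPM, near the LPS level. The extract libraries lay close together and their mean was 15.8 times the LPS mean, a log2 difference of 3.89 ± 0.044 (SE, limma adjusted p = 2.08e-08). Its TPM came from 2 transcripts that rose together, by 4.01 ± 0.059 (limma adjusted p = 1.29e-06) and 3.52 ± 0.078 (limma adjusted p = 5.76e-06). Their mean shares were 50.1% and 49.9% in LPS and 58.5% and 41.5% in extract cells.

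ENSRNOG00000064658 had the largest fitted rise under that rule but the least steady values of the 4. It was listed at 0, 2.58 and 0 TPM in the LPS libraries and at 30.4, 42.6 and 23.8 TPM in the extract libraries, with 1 expressed transcript. The groups did not overlap, and the log2 difference was 4.40 ± 0.49 (SE, limma adjusted p = 0.000174). With a pseudocount of 0.1 the difference was 6.72 and with 5 it was 2.67, so its size depends on how the 2 values listed at 0 are treated. Control libraries stood at 5.58, 7.18 and 6.46 TPM.

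**Figure D2:**
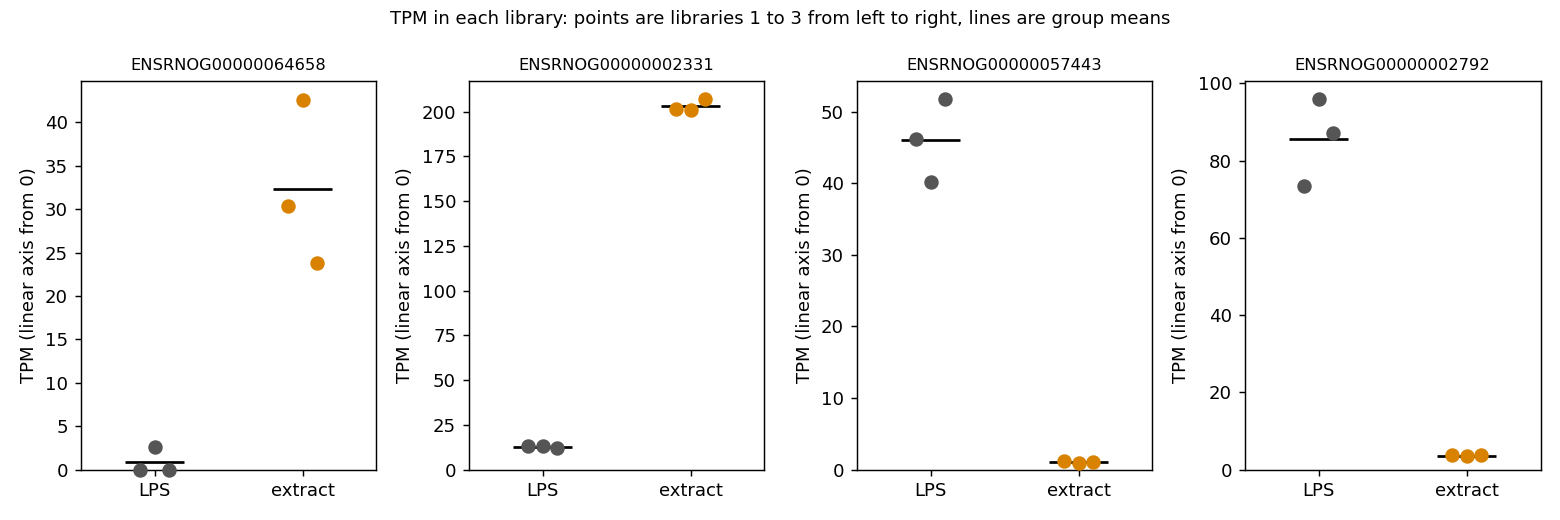
TPM of 4 genes (vertical axes, linear, from 0) in the 3 LPS and the 3 extract libraries. Points are libraries and horizontal lines are group means. The extract libraries of ENSRNOG00000002331 sit between 201.1 and 207.3 TPM above LPS libraries at 12.1 to 13.2, and those of ENSRNOG00000057443 and ENSRNOG00000002792 sit below 5 TPM.

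The remaining genes among the 10 largest changes in each direction spanned a wide range of levels. The other 8 rising genes had log2 differences of 2.64 to 3.47, from LPS means of 2.03 to 181.3 TPM to extract means of 27.5 to 1666 TPM. The most abundant of them held 171.1, 185.8 and 186.8 TPM in the LPS libraries and 1703, 1639 and 1655 TPM in the extract libraries, so all 3 extract libraries were several times above any LPS library. Another of the 8 was listed at 0, 0 and 25.3 TPM in LPS and at 28.5, 26.9 and 31.1 TPM in extract libraries, where 1 LPS library nearly reached the extract level (limma adjusted p = 0.0398). The other 8 falling genes had differences of -3.70 to -3.11, from LPS means of 12.3 to 826.7 TPM. The most abundant of these held 733.1, 844.7 and 902.2 TPM in the LPS libraries and 101.5, 99.8 and 83.3 TPM in the extract libraries. One other was listed at 8.32, 21.6 and 7.15 TPM in LPS and at 0 in all 3 extract libraries. Its control libraries, outside the test, stood at 14.95, 0 and 0 TPM, so its values also differed widely within a group.

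Values listed at 0 set apart a small class of tested genes. A value of 0 in at least 1 library was found for 181 genes, of which 8 were called higher and 10 lower, against 33.7% and 24.2% of all tested genes. A tested gene with a 0 tends to have a low level or a wide spread, and both make a call less likely. The share called among genes of like abundance and spread was not computed, so these counts are a description only. In 113 genes a library listed at 0 stood beside another of the same group at 5 TPM or more, and 3 of these were called, against 58% of all tested genes. These genes were picked for a wide spread within a group, which itself makes a call unlikely, so the low count follows largely from the choice. Genes with a 0 made up most of the large differences that were not called: of 86 uncalled genes with a fitted difference of at least 2-fold, 40 upward and 46 downward, 82 had a 0 in at least 1 library. Before any filter, 2 genes were listed at 0 in all LPS libraries with at least 1 TPM in all extract libraries. One of these had 3.31, 3.74 and 3.01 TPM in the extract libraries, and the other 22.4, 2.00 and 1.88 TPM. The reverse held for 2 genes, with LPS values of 2.72, 3.10 and 2.05 TPM and of 8.32, 21.6 and 7.15 TPM. The latter is the falling gene described above, whose control values also included 0. Values identical to another gene's in all 6 libraries, as near-identical copies would give, were found for 41 tested genes (0.34%), of which 7 were called, against the same 58%. The share called varied with abundance, and the level and spread of these 41 genes were not compared with those of all tested genes.

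The share of genes called rose with abundance while the median absolute difference on the log2(TPM + 1) scale did not. From the 832 genes of 1 to 2 TPM to the 147 genes of at least 1000 TPM, the share called went from 21.6% to 76.9%. The median standard error fell from 0.157 to 0.038 over the same classes, and the median absolute difference was 0.22 in the first and 0.19 in the last. At low TPM this median is shrunk by the pseudocount and widened by the larger spread, so similar medians do not show similar underlying differences. The share with a called difference of at least 2-fold lay between 3.37% and 5.59% in all 8 classes. In the low classes this rests on the pseudocount of 1: at 1 to 2 TPM, 13 genes rose and 15 fell by that much with it, 42 and 46 with a pseudocount of 0.1, and 0 and 0 with 5. At 2 to 5 TPM the counts were 36 and 41, then 81 and 57, and 3 and 2. At 100 to 1000 TPM they stayed at 22 and 49, 23 and 49, and 20 and 46.

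Direction turned over in the most abundant class. Below 1000 TPM each of the 7 classes held more higher than lower calls with TPM as deposited, from 93 and 87 at 1 to 2 TPM to 583 and 399 at 100 to 1000 TPM. After median-of-ratios rescaling the excess was found at 5 to 10 TPM (430 and 396), at 20 to 50 TPM (1017 and 982), at 50 to 100 TPM (536 and 461) and at 100 to 1000 TPM (519 and 446), but was reversed at 10 to 20 TPM (708 and 724), at 2 to 5 TPM (275 and 277) and at 1 to 2 TPM (82 and 96). Quantile normalization left it at 1 to 2 TPM (94 and 83), at 2 to 5 TPM (282 and 263), at 50 to 100 TPM (530 and 463) and at 100 to 1000 TPM (540 and 424), and reversed it at 5 to 10 TPM (408 and 428), at 10 to 20 TPM (701 and 738) and at 20 to 50 TPM (997 and 1009). Among the 147 genes of at least 1000 TPM, 40 were higher (27.2%) and 73 lower (49.7%), with a median log2 difference of -0.11 (limma, adjusted p below 0.05). Median-of-ratios rescaling gave 36 higher and 82 lower in that class, and quantile normalization 40 and 58. These genes took 43.9%, 44.3% and 43.0% of all TPM in the LPS libraries and 42.1%, 42.5% and 42.4% in the extract libraries. The groups did not overlap (exact permutation test, two-sided p = 0.1, the smallest that 3 against 3 allows). Genes under 100 TPM took 24.6%, 24.2% and 25.0% in LPS and 25.6%, 25.6% and 25.5% in extract libraries, again without overlap (exact permutation p = 0.1). For genes of 100 to 1000 TPM the shares overlapped, at 31.4%, 31.3% and 31.8% in LPS and 32.2%, 31.8% and 31.9% in extract libraries (exact permutation p = 0.2). As TPM has a fixed total, a lower share in one class raises the others.

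The balance of large differences varied between classes without a steady trend. Of the genes with a mean of 100 TPM or more, 26 rose and 52 fell by 2-fold or more. Between 1 and 100 TPM, 280 rose and 195 fell by that much. After median-of-ratios rescaling 23 rose and 54 fell in the upper range, and 232 rose and 211 fell in the lower one. The widest excess of rises was at 10 to 20 TPM, with 75 higher and 28 lower (66 and 32 after median-of-ratios rescaling), and the widest excess of falls at 100 to 1000 TPM, with 22 and 49 (19 and 51). Falls were also slightly more numerous at 1 to 2 TPM (13 and 15) and at 2 to 5 TPM (36 and 41), and the class of at least 1000 TPM had 4 and 3. After that rescaling the counts were nearly even at 5 to 10 TPM (32 and 32) and at 20 to 50 TPM (54 and 56).

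**Figure D3:**
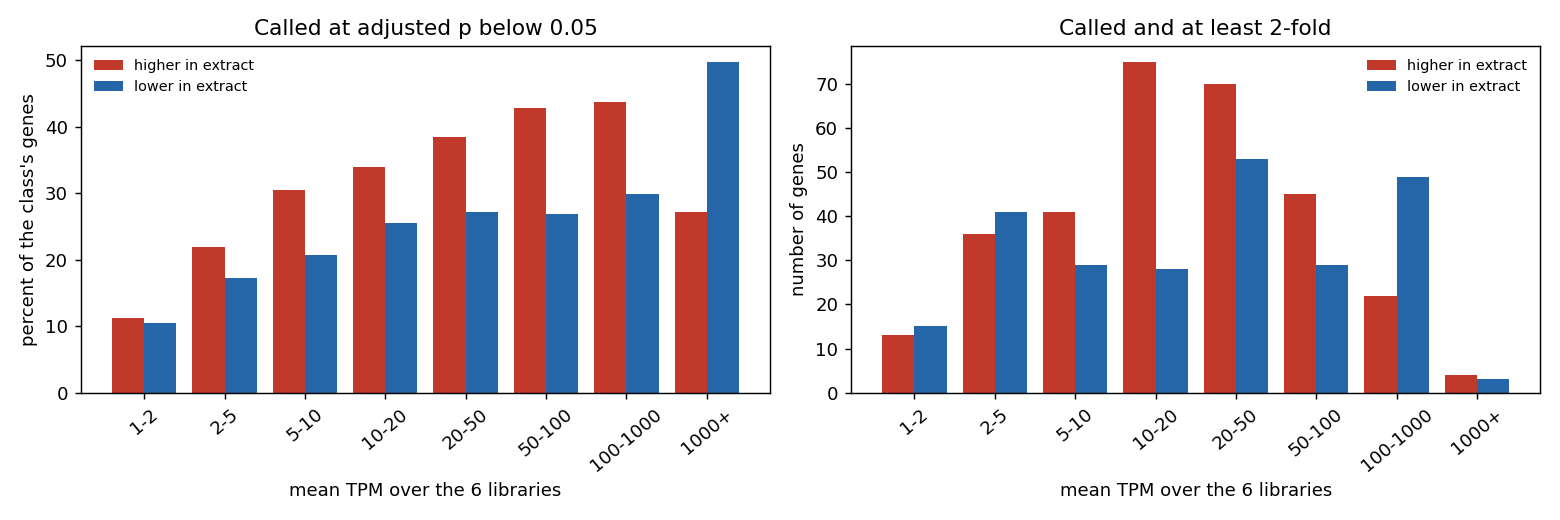
Genes called higher (red) and lower (blue) in extract than in LPS cells, by mean TPM over the 6 libraries (horizontal axis). The left panel gives the percent of each class called at an adjusted p below 0.05 and the right panel the number that also differed at least 2-fold. Lower calls outnumber higher calls in the class of at least 1000 TPM on the left (49.7% against 27.2%) and at 100 to 1000 TPM on the right (49 against 22).

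The 10 largest losses made up a larger part of all loss than the 10 largest gains did of all gain. Between the 2 group means, gains and losses over all genes each added up to 10.97% of the total TPM. These sums include genes that were not called, and the like sum between libraries of the same group was not computed. The 10 genes with the largest loss accounted for 26.7% of what was lost, and the 10 with the largest gain for 17.0% of what was gained. The gene that lost most stood at 24378, 24339 and 23424 TPM in the LPS libraries and 17002, 18025 and 15537 TPM in the extract libraries, a log2 difference of -0.52 ± 0.055 (limma adjusted p = 0.00014). The second held 10782, 14225 and 8660 TPM in LPS and 5663, 5998 and 5908 TPM in extract libraries (limma adjusted p = 0.00164). Its LPS libraries varied more, with an SD of 2809 TPM against 173.4 TPM in extract libraries, yet all lay above them. The gene with the largest gain, at 29878, 31839 and 31651 TPM in LPS and 32122, 35798 and 33912 TPM in extract libraries, differed by 0.12 ± 0.048 and was not called (limma adjusted p = 0.0564). The next largest gain was a called one: 1471, 1466 and 1467 TPM in LPS and 3800, 3984 and 3685 TPM in extract libraries (1.38 ± 0.034, limma adjusted p = 5e-07).

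At the level of transcripts, 4183 of 19234 tested were higher (21.7%) and 2965 lower (15.4%), together 37.2% called (limma, adjusted p below 0.05). The median standard error was 0.106, against 0.063 for genes. At least 2-fold differences were called for 441 transcripts that were higher and 363 that were lower. Of 4841 genes with 2 or more tested transcripts, all were called higher in 369 and all lower in 262. Only some were called, in 1 direction, in 1944 genes, and none in 2194.

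Transcripts of the same gene were called in opposite directions in 72 genes, 1.49% of those with 2 or more tested. At the gene level 19 of the 72 were higher, 24 lower and 29 not called. The number fell to between 41 and 62 when a library was left out, with 45 without LPS library 2, 41 without extract library 2 and 44 without extract library 3. With no library left out, the alternative fits gave from 48 (a minimum mean of 5 TPM) to 82 (all 9 libraries in 1 fit). Of 1732 uncalled genes with 2 or more tested transcripts, 204 had at least 1 called transcript.

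The leading transcript, the one with the highest TPM of its gene, was mostly the same in both groups. Among 4673 genes of at least 5 TPM with 2 or more tested transcripts, it was the same in all 6 libraries in 3818 (81.7%) and varied between libraries of the same group in 837. In 18 genes all 3 LPS libraries shared a leading transcript and all 3 extract libraries shared another one. Whether 18 exceeds what leading transcripts that vary between libraries would give was not tested. The choice of these genes fixes the direction in which the share of the LPS leading transcript moves, so its median drop of 10.8 percentage points is a description only. Both leading transcripts were called, in opposite directions, in 5 of the 18. ENSRNOG00000057443, described above, was among the 18, with both of its transcripts lower. In extract libraries they stood at 0.65, 0.59 and 0.58 TPM and at 0.6, 0.39 and 0.51 TPM. The change of its leading transcript thus rests on extract values under 1 TPM.

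The clearest exchange, chosen after the values were seen, was in a gene whose total fell by 0.75 ± 0.056 on the log2 scale (limma adjusted p = 2.58e-05). Its leading transcript in LPS cells held 71.9%, 74.3% and 79.1% of the gene's TPM in the LPS libraries and 37.1%, 42.0% and 37.4% in the extract libraries. It went from 55.3, 58.2 and 62.9 TPM to 15.9, 19.4 and 18.7 TPM (-1.66 ± 0.085, limma adjusted p = 4.5e-05). The other transcript rose from 18.4, 17.4 and 14.7 TPM to 25.0, 25.6 and 30.6 TPM (0.65 ± 0.11, limma adjusted p = 0.00415). The groups did not overlap for either transcript.

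**Figure D4:**
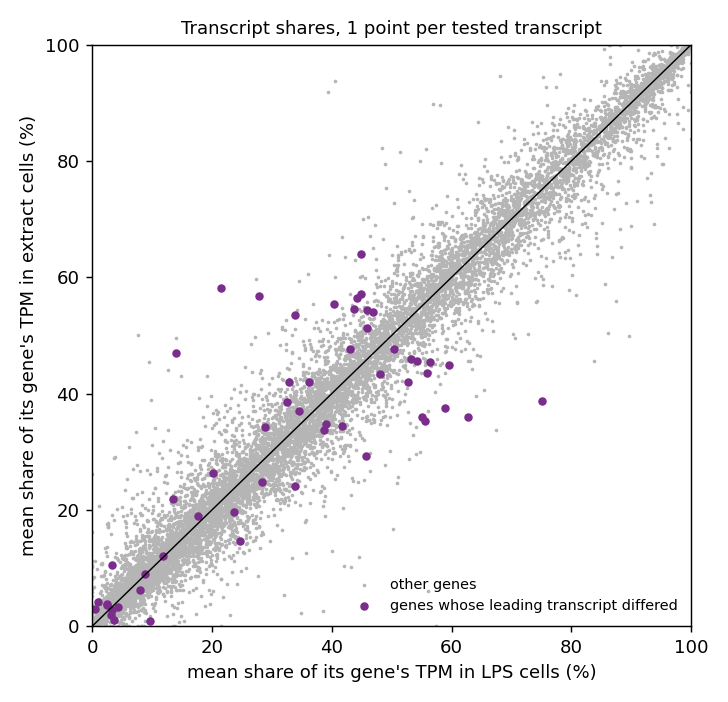
Mean share of its gene's TPM for each tested transcript of 4673 genes, in LPS cells (horizontal axis, percent) and extract cells (vertical axis, percent). Purple points are transcripts of the 18 genes whose leading transcript differed between the groups, grey points those of other genes, and the line marks equal shares. Most points lie near the line, and the purple point farthest below it is the transcript that went from a mean of 75.1% to 38.8%.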

How the data were processed

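The authors deposited TPM values per gene and per transcript in 2 tables of 9 libraries, rounded to 2 decimals. Per the submitters' processing notes the tools were HISAT2 2.1.0, RSEM 1.3.3 and fastp, with no role or setting stated. Genome build, annotation and strandedness: not given in the sources used here. Columns were assigned to libraries by the code that opens each title. Features whose mean over the 6 libraries reached 1 TPM were tested as log2(TPM + 1) with limma 3.58.1 in R 4.3.3, moderated with a mean-variance trend, two-sided, on 4 residual degrees of freedom, and Benjamini-Hochberg adjusted over each table. The procedure was tested on simulated data.

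The comparison, gene lists and tests were chosen with earlier results of these data known. The 34 gene lists and 5 marker lists could not be matched to identifiers, since the reference table of rat genes held no Ensembl identifiers. The naming rule took the 2 identifiers with the largest difference in each direction among called genes without overlap and with at least 5 TPM in the higher group. The abundance classes, 4-fold counts, opposite calls and leading transcripts were chosen after the values were seen. Each gene was linked to the run of neighbouring transcripts whose values add up to its own in every library, within 0.006 TPM for each rounded number. Libraries were not paired by replicate number, since deviations of same-numbered libraries did not all correlate above 0.1.

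The alternatives tried were pseudocounts of 0.1 and 5, filters of 0 and 5 TPM, values above 0 in all 6 libraries (chosen after seeing the data), 2 rescalings, all 9 libraries in 1 fit, no trend, library weights, the replicate number as a block, and leaving out each library.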

Additional observations from a re-analysis of the deposited data

How the results depend on the processing

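Over all tested genes and over all tested transcripts, the counts called higher and lower moved by less than 1.5 times under every alternative that was run, as did both counts in the class of at least 1000 TPM. At 1 to 2 TPM the genes called higher went from 93 to 142 without the mean-variance trend. A pseudocount of 5 brought the genes at least 2-fold higher from 306 to 137 and those at least 2-fold lower from 247 to 134. Within 1 to 100 TPM these 2-fold counts went to 113 and 85. The genes at least 4-fold higher went from 19 to 41 with a pseudocount of 0.1 and to 10 with 5, and those at least 4-fold lower from 38 to 69 and 16. A larger pseudocount shrinks every fold by construction. Genes with transcripts called in opposite directions numbered 72, and between 41 and 62 with 1 library left out (45 without LPS library 2, 41 without extract library 2 and 44 without extract library 3), where fewer samples enter the fit. With no library left out, they ranged from 48 with a filter of 5 TPM to 82 with all 9 libraries in 1 fit. The differences of the 4 identifiers kept their sign and call in all 67 fits that gave one; ENSRNOG00000064658 has no value where a TPM above 0 was required in all 6 libraries. Of the 306 genes, 305 were still called higher after median-of-ratios rescaling, and of the 247, 245 were still called lower.

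With the replicate number as a block, 3868 genes were higher and 2779 lower, 3535 transcripts were higher and 2386 lower, and 51 genes had opposite transcript calls; no count moved by over 1.5 times. Deviations of libraries 1, 2 and 3 from their group means correlated with the same number in the other group at 0.028, 0.081 and 0.102. Each library correlated best with its own number, though weakly. Deviations from a shared mean depend on each other, and how often such an order arises by chance was not tested. The labels state no pairing. The alternatives for the gene lists were not run, since no identifier had a name. The unknown depth limits what can be said of uncalled genes at low TPM.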
